A study of Mus musculus with 14 samples.

Results

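The genes of arginine and nitric oxide metabolism described here are 8 in number, out of 24982 genes in the deposited count table. They were chosen by name for their roles, with earlier results of these data known. They are NOS2, which encodes inducible nitric oxide synthase, SLC7A2, a transporter of cationic amino acids that imports arginine, GCH1, the first enzyme of tetrahydrobiopterin synthesis, ASS1 and ASL, which rebuild arginine from citrulline, the arginases ARG1 and ARG2, and ODC1, ornithine decarboxylase. Symbols of these mouse genes are written in capitals, as the table lists them, and all 8 were found in it. They were measured in macrophages of the colonic lamina propria, sorted as CD45+ Ly6G- CD103- CD64+ CD11b+ MHCII+ Ly6C- cells from C57BL/6 mice that were 5 weeks old, with 1 library per mouse. All mice, controls included, carried Cdcs1, a locus of susceptibility to colitis. The WT group has no other listed change (5 mice), IL10RAKO mice lack IL10RA, the ligand-binding chain of the interleukin-10 receptor (4 mice), DKO mice lack IL10RA together with CCR2, the chemokine receptor with which monocytes leave the bone marrow (4 mice), and CCR2KO is a single mouse that lacks CCR2 only. The knockouts are not restricted to macrophages, so every other cell of the mouse lacked the gene as well. In the paper, IL10RAKO mice of about this age had spontaneous colitis, DKO mice a milder one, and WT and CCR2KO mice none by histology. Effects of a genotype in macrophages and effects of the inflamed colon therefore cannot be told apart. WT mouse 11, which has no values in the authors' second table, and CCR2KO mouse 6 entered no test and are given as single values. Each of the 3 tested genotypes therefore has n = 4 mice.

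Macrophages can use arginine in competing ways. Nitric oxide synthase turns it into nitric oxide and citrulline and needs tetrahydrobiopterin to do so, whereas arginase splits it into urea and ornithine, from which ornithine decarboxylase makes the polyamines and from which proline can be made. In mouse macrophages, interferon gamma and microbial products are known inducers of NOS2, interleukin-4 and interleukin-13 are known inducers of ARG1, and interleukin-10 is known to restrain the response to microbial products.

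Between 12153000 and 21216468 reads per library were assigned to genes. Levels are given as CPM (counts per 1000000 reads of the library after TMM scaling), and 3 reads, taken as the smallest count that the depth can show, correspond to 0.124 to 0.211 CPM in the 12 libraries tested. The floor allows for counting error alone, because molecules were not tagged before amplification. The targeted genes followed the labels. IL10RA was at 217 to 379.6 CPM in the 4 WT mice of the test and at 3.41 to 11.2 CPM in the 8 mice that lack it, and CCR2 was at 3.92 to 6.68 CPM in DKO mice and 361 to 702 CPM in WT and IL10RAKO mice. Summed levels of 8 macrophage markers lay between 18347 and 34042 CPM in every library. Most of this sum was H2-AB1, with means of 15868, 24213 and 20216 CPM in WT, IL10RAKO and DKO mice. By the test described next, 2 of the 8 were higher in IL10RAKO, and 1 was higher and 2 were lower in DKO. WT mouse 11 stood apart by its epithelial markers, with 2678 summed CPM over 6 genes. WT mouse 10 had 978 CPM and the other WT mice 42.9 to 203 CPM. Monocyte markers (5 genes) summed to 160 to 228 CPM in WT mice, 394 to 1098 CPM in IL10RAKO and 452 to 724 CPM in DKO mice, and 2 of the 5, LY6C2 and PLAC8, were higher in both knockout genotypes by the test described next. Neutrophil markers (8 genes) summed to 2.70 to 12.0, 13.1 to 138 and 73.8 to 101.6 CPM in the same order, and of the 6 tested, 4 were higher in IL10RAKO (S100A8, S100A9, MMP8 and NGP) and 5 in DKO (these and LTF). LY6G, the defining one, did not pass the filter, with at most 12 reads in any library. Fibroblast markers (6 genes) went the other way, with 294 to 577 CPM in WT and 15 to 67.0 CPM in the 8 knockout mice, and all 6 were lower in both genotypes. In 7 further lists (epithelial, T and NK, B and plasma, type 2 lymphoid, endothelial, dendritic and mast cells), at most 2 genes per list were called against WT. Of 4 dendritic genes, 2 were higher in IL10RAKO and 1 in DKO. Of 2 tested mast cell genes, 1 was higher in each. Over all genes, 15.8% and 18.5% were called. The mast cell sum, mostly KIT, was 10.6 to 32.7, 70.3 to 96.7 and 75.4 to 120 CPM in WT, IL10RAKO and DKO mice. The other lists had at most 1 call per genotype. In the untested CCR2KO mouse, summed monocyte markers were 427 CPM, inside the IL10RAKO range. Its neutrophil sum (33.7 CPM) and its fibroblast sum (681 CPM) were above those of every WT mouse.

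Each comparison of genotypes used edgeR's quasi-likelihood F-test over 13136 genes, and a gene was called when its p-value, adjusted over all of them, was under 0.05. ASS1 did not pass the filter on low counts, so 7 of the 8 genes were tested. Against WT, 6 of the 7 were higher in IL10RAKO macrophages, where 15.8% of all tested genes were called and 8.7% were called higher. In DKO macrophages 5 of the 7 were higher, where 18.5% of all tested genes were called and 9.23% were called higher. None was lower in either comparison, where 7.1% (IL10RAKO) and 9.22% (DKO) of all genes were called lower. The median log2 fold change of the 7 was 3.79 in IL10RAKO and 3.55 in DKO, while the median over all tested genes was −0.07 and −0.06. Both comparisons use the same WT mice. Between DKO and IL10RAKO none of the 7 was called, where 0.0457% of all genes (6 of 13136) were called by edgeR, 2.95% had an unadjusted p under 0.05 and DESeq2 called 24. None of the 7 had an unadjusted p under 0.05 in that comparison. In sorted bulk samples, a larger share of cells that express a gene and more RNA per cell cannot be told apart.

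**Figure D1:**
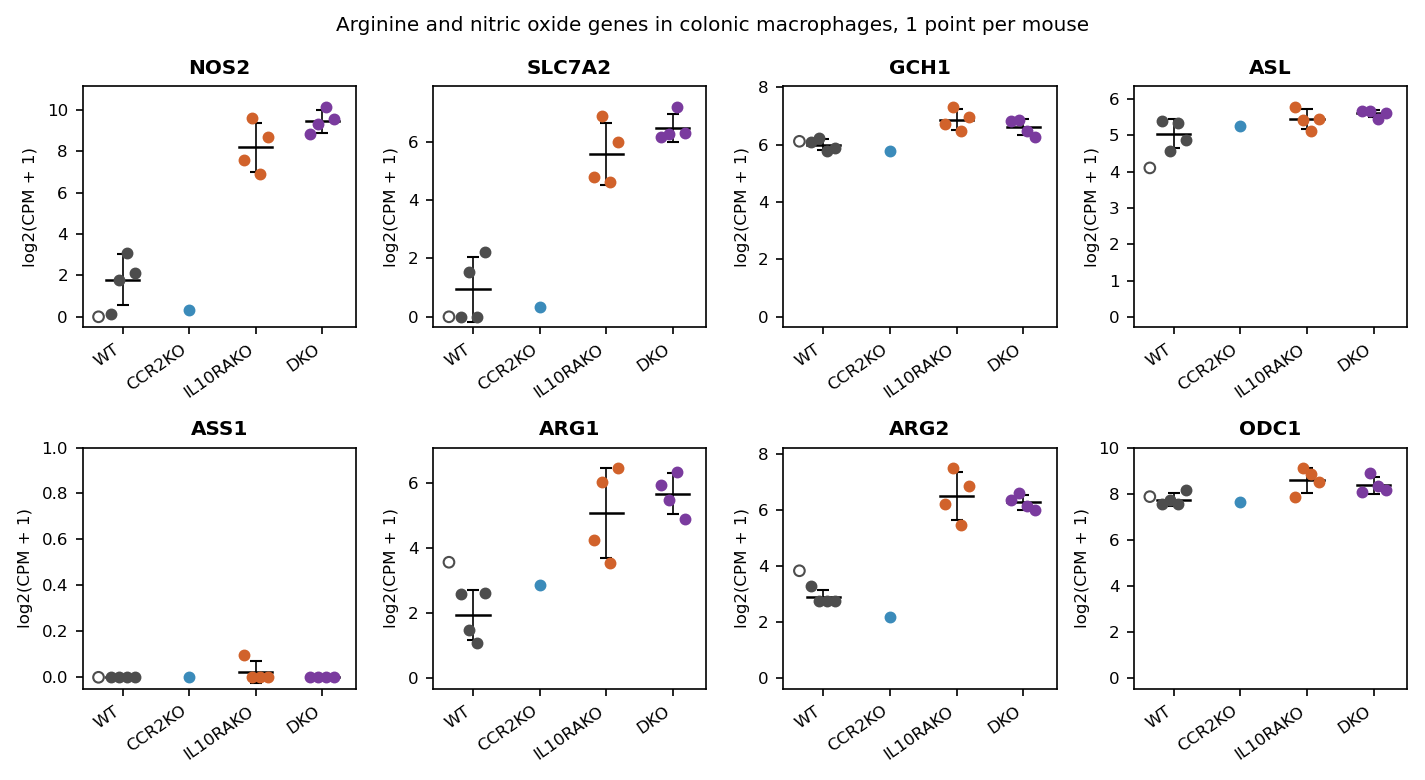
Level of each of the 8 genes, as log2(CPM + 1) on the vertical axis, in each mouse, by genotype on the horizontal axis. Filled points are single mice, lines and bars are the mean and SD of the 4 tested mice, the open circle is WT mouse 11, and CCR2KO is 1 mouse. NOS2, SLC7A2 and ARG2 lie far above every WT mouse in all 8 mice without IL10RA. In these mice ARG1 lies above the 4 tested WT mice, but in IL10RAKO mouse 7 (10.8 CPM) it is level with WT mouse 11. GCH1 and ODC1 lie less than 1 log2 unit above WT on average. ASS1 is listed at or near 0 in every library, which is not read as absence.

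NOS2 showed the largest difference of the set. It lies on chromosome 11 (chr11:78920787-78960254, plus strand, GRCm38, which is mm10) and has 29 exon blocks in GENCODE vM21. The 4 WT mice had 0.0955, 2.40, 7.5 and 3.4 CPM (mice 4, 5, 10 and 13), which were 2 to 181 reads. The IL10RAKO mice had 191, 779, 118 and 409 CPM (mice 1, 2, 7 and 8). The DKO mice had 452, 630.1, 1129 and 746 CPM (mice 3, 9, 12 and 14). The lowest knockout mouse thus lay well above the highest WT mouse, and mouse 2 was the only IL10RAKO mouse inside the range of the DKO mice. The log2 fold change against WT was 6.78 in IL10RAKO (standard error 0.86, adjusted p = 9.89e-05, edgeR), a fold of 110.2. In DKO it was 7.77 (standard error 0.89, adjusted p = 3.71e-05, edgeR), a fold of 218. These folds rest on few WT reads and on which WT mice are used. Without WT mouse 10, which had the most reads, the folds were 197 and 389, and without IL10RAKO mouse 2 the fold in IL10RAKO was 70.8. The gene was called each time. NOS2 was at 0.247 CPM (5 reads) in the CCR2KO mouse and had 0 reads in WT mouse 11.

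SLC7A2, the arginine importer, followed the same order of genotypes at lower levels. It lies at chr8:40862396-40922308 (plus strand) and shares 635 exon bases with a noncoding RNA on the other strand, Gm26584, which has no row in the table. WT mice 4 and 10 had no read on it, and WT mice 5 and 13 had 32 and 55 reads (1.88 and 3.66 CPM). IL10RAKO mice 1, 2, 7 and 8 had 27, 116, 23.4 and 62.0 CPM. DKO mice 3, 9, 12 and 14 had 70.2, 75.1, 145 and 77.4 CPM, so that mouse 12 stood above 3 closely spaced mice. The log2 fold change was 5.47 in IL10RAKO (standard error 0.95, adjusted p = 0.00121) and 6.16 in DKO (standard error 0.97, adjusted p = 4.98e-04, both edgeR). With 2 of the 4 WT mice at 0, the size of these folds is uncertain. Leaving out WT mouse 13 raised the log2 fold changes to 6.66 and 7.35, and leaving out IL10RAKO mouse 2 lowered the first to 4.87. The gene was again called each time. The CCR2KO mouse had 5 reads on SLC7A2 and WT mouse 11 had none.

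GCH1, which makes the cofactor that nitric oxide synthase requires, was expressed in WT macrophages already and differed by a smaller factor. It lies at chr14:47153895-47189413 on the minus strand. The WT mice had 67.7, 73.6, 54.3 and 58.3 CPM. The IL10RAKO mice had 104, 158, 87.9 and 125 CPM, and the DKO mice had 112, 116, 88.6 and 75.5 CPM, in the order of mice given above. Neither knockout genotype overlapped with WT, but DKO mouse 14 came within 2 CPM of WT mouse 5. GCH1 was 1.87-fold higher in IL10RAKO (log2 fold change 0.90, standard error 0.20, adjusted p = 0.00707, edgeR). In DKO it was 1.55-fold higher (log2 fold change 0.63, standard error 0.20, adjusted p = 0.0431, edgeR), which is close to the threshold and was lost when library totals replaced TMM scaling (adjusted p = 0.181), under a filter of 10 reads in every library (adjusted p = 0.0534), and without any of WT mice 10 and 13, IL10RAKO mouse 8 or DKO mice 3, 9 and 12 (adjusted p up to 0.129). The CCR2KO mouse had 54.3 CPM, the same as the lowest WT mouse of the test, and WT mouse 11 had 68.4 CPM.

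Of the 8 genes, 3 (ASS1, GCH1 and ODC1) have an entry in the RefSeq promoter table used here, and NOS2, SLC7A2, ASL, ARG1 and ARG2 do not. The windows of GCH1 and ODC1 are shown because both genes were called higher in IL10RAKO macrophages. Each runs from 250 bases before to 50 bases after the start of transcription in GRCm38.p6 and is written 5′ to 3′ on the strand of the gene. Capitals mark matches, on either strand, to TGACG (the core of the cyclic AMP response element) and CCAAT (the CCAAT box).
GCH1, chr14:47189364-47189663, minus strand: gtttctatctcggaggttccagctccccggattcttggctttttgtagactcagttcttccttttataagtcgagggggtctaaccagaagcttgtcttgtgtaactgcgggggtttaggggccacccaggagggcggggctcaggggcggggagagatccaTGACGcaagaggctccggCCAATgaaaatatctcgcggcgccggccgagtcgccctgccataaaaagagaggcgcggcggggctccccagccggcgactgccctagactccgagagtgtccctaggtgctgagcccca
ODC1, chr12:17544623-17544922, plus strand: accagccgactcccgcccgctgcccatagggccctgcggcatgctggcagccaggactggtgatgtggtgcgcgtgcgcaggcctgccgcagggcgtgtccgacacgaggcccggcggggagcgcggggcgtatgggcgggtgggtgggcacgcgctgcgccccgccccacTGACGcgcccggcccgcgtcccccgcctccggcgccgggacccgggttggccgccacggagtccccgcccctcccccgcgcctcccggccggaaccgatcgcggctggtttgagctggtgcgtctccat
The GCH1 window holds TGACG at −88 and CCAAT at −70 relative to the start. The ODC1 window holds TGACG at −79 and no CCAAT. The RefSeq start used for ODC1 lies inside the gene as GENCODE vM21 places it (from 17544794). This match is therefore not upstream of the GENCODE gene. Of all 32851 promoters of this length in the table, 20.8% hold TGACG and 37.4% hold CCAAT. Neither window holds TGANTCA (the AP-1 site, in 7.81% of promoters), TTCNNNGAA (the STAT site, 8.3%), CACGTG (the E-box, 7.15%) or the interferon-stimulated response element (3.44%). A match describes the letters only.

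Arginine can be rebuilt from the citrulline that nitric oxide synthase releases, through argininosuccinate synthase (ASS1) and argininosuccinate lyase (ASL). ASL (chr5:130011258-130029247, minus strand) was at 40.8, 22.6, 39.8 and 28.4 CPM in WT mice, 54.1, 42.2, 33.5 and 43.0 CPM in IL10RAKO mice and 49.9, 50.5, 42.7 and 48.0 CPM in DKO mice. All 4 DKO mice lay above all 4 WT mice, by a narrow margin, while IL10RAKO mouse 7 lay inside the WT range. The groups did not overlap in this direction for 6 of the 7 tested genes in DKO and for 5 in IL10RAKO, against 11.2% and 9.45% of all genes. The log2 fold change of ASL was 0.54 in DKO (95% confidence interval 0.10 to 0.98, adjusted p = 0.0858) and 0.39 in IL10RAKO (−0.05 to 0.83, adjusted p = 0.225, both edgeR). Neither passed over all genes tested. In DKO, the call changed without WT mouse 4, at adjusted p = 0.0414 (edgeR), and an exact two-sided permutation test of ASL alone gave p = 0.0286, the smallest that 4 mice against 4 allow.

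ASS1 (chr2:31470207-31520672, plus strand) had 1 read in IL10RAKO mouse 1 and is listed at 0 in the other 13 libraries. This was read as a listed value and not as absence, because genes that cells in general use, such as OAZ1 (ornithine decarboxylase antizyme) and AMD1 (S-adenosylmethionine decarboxylase), are also listed at 0 in all 14 libraries. The annotation holds a processed copy of ASS1 on another chromosome, the pseudogene Gm5424 (chr10:62071123-62072362), which is listed at 0 too. Over 1240 aligned bases the ASS1 transcript and Gm5424 have 6 mismatches and no gap (99.5% identity), and 454 of the 1547 windows of 150 bases in the ASS1 transcript (29.3%), the length of a sequenced read, occur in Gm5424 without a mismatch. The stretch of 120 coding bases with the most mismatches, coding bases 310 to 429, is shown with the differing bases in capitals.
ASS1: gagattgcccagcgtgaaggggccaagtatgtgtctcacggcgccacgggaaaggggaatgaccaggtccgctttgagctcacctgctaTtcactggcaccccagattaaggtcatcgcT
Gm5424: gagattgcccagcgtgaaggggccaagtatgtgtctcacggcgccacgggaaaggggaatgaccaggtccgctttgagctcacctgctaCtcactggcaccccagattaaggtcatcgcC
The differences are T90C and T120C, with the base of ASS1 first, counted from 1 at the first base shown. How the counting treated reads that align to both places is not given in the sources used here, and whether it bears on the zeros was not tested. The listed values of ASS1 are therefore not read as its level in any genotype.

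Both arginases were higher in the mice that lack IL10RA. ARG1, the cytosolic arginase, lies at chr10:24915221-24927484 (minus strand). It was at 5.01, 1.82, 1.12 and 5.13 CPM in WT mice, from 27 to 105 reads. IL10RAKO mice had 18, 65.0, 10.8 and 86.3 CPM, an 8.01-fold spread within 1 genotype, and DKO mice had 60.2, 43.8, 80.8 and 28.7 CPM. No knockout mouse fell within the range of these 4 WT mice, and IL10RAKO mouse 7 came closest to it. The log2 fold change of ARG1 was 3.79 in IL10RAKO (standard error 0.67, adjusted p = 0.00140) and 4.04 in DKO (standard error 0.68, adjusted p = 8.01e-04, both edgeR). The 2 untested libraries lay above the 4 WT mice, with 6.32 CPM in the CCR2KO mouse and 10.8 CPM in WT mouse 11, the latter equal to IL10RAKO mouse 7 at this precision.

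ARG2, the mitochondrial arginase, lies at chr12:79130777-79156301 (plus strand) and had the smallest p-value of the set. It was at 8.74, 5.80, 5.72 and 5.79 CPM in WT mice. IL10RAKO mice had 73.1, 176, 42.6 and 114 CPM, and DKO mice had 80.3, 96.1, 68.6 and 61.8 CPM. WT mice were closely spaced apart from mouse 4, and no knockout mouse came near them. The log2 fold change was 3.96 in IL10RAKO (standard error 0.38, adjusted p = 7.77e-06) and 3.55 in DKO (standard error 0.37, adjusted p = 1.69e-05, both edgeR). Exons of ARG2 share 285 bases with VTI1B on the other strand, a gene with 771 to 1742 reads per library. Since the strand setting of the counting is not given in the sources used here, reads in the shared bases cannot be assigned with certainty. ARG2 was at 3.55 CPM in the CCR2KO mouse and at 13.2 CPM in WT mouse 11.

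ODC1, the entry to polyamine synthesis, was the most abundant of the 8 genes in WT macrophages and had the smallest log2 fold change of the 6 called in IL10RAKO. It lies at chr12:17544794-17551505 (plus strand). WT mice had 187, 212, 186 and 286 CPM, IL10RAKO mice 234, 549.6, 462 and 361 CPM and DKO mice 270.2, 483, 321 and 291 CPM. IL10RAKO mouse 1 and DKO mouse 3 lay below WT mouse 13, so both knockout genotypes overlapped with WT. The log2 fold change was 0.88 in IL10RAKO (standard error 0.26, adjusted p = 0.0320) and 0.65 in DKO (95% confidence interval 0.10 to 1.2, adjusted p = 0.0981, both edgeR). The call in IL10RAKO was lost with library totals in place of TMM (adjusted p = 0.122) and without any of WT mice 4, 5 and 10 or IL10RAKO mice 2 and 7 (adjusted p up to 0.101), and the exact permutation test gave p = 0.0571. The CCR2KO mouse had 199 CPM and WT mouse 11 had 235 CPM, both inside the WT range.

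**Figure D2:**
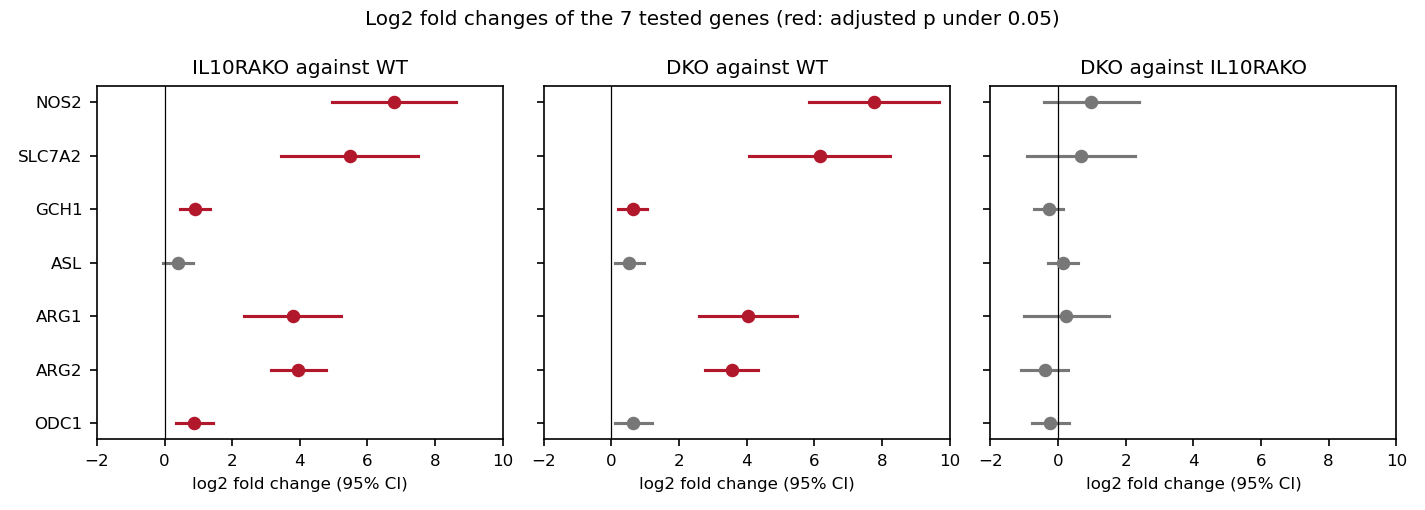
Log2 fold change with its 95% confidence interval (horizontal axis) for the 7 tested genes (rows) in the 3 comparisons (panels), from edgeR, with called genes in red. Intervals of NOS2, SLC7A2, ARG1 and ARG2 lie above 2 against WT in both genotypes, and every interval between DKO and IL10RAKO includes 0.

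DKO and IL10RAKO mice were compared for differences in these genes when CCR2 is lost in addition to IL10RA. By the paper, these genotypes also differ in the severity of colitis. NOS2 was 1.97-fold higher in DKO than in IL10RAKO mice, a log2 fold change of 0.98 with a 95% confidence interval from −0.43 to 2.39. SLC7A2 differed by 0.69 (−0.91 to 2.28) and ARG1 by 0.25 (−1.0 to 1.5) on the log2 scale. For these 3 genes the intervals admit changes of more than 2-fold upwards, so that a difference of that size was not excluded with these mice. The intervals of ARG1 and of ARG2, given next, also reach 2-fold downwards. ARG2 had a log2 fold change of −0.40 (−1.11 to 0.30), GCH1 of −0.28 (−0.70 to 0.15) and ODC1 of −0.23 (−0.78 to 0.31). The narrowest intervals were those of GCH1 and ASL, whose log2 fold change was 0.15 (−0.29 to 0.58). The adjusted p was 0.99992 for all 7 genes (edgeR). Removing IL10RAKO mouse 2, the highest mouse for NOS2, SLC7A2, GCH1, ARG2 and ODC1 in its group, moved the log2 fold change of NOS2 to 1.63 and of SLC7A2 to 1.30, with adjusted p = 1 for both (edgeR). Without DKO mouse 12, that of SLC7A2 was 0.38.

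Levels per length, in CPM per kb of exon, allow the genes to be set beside each other within a mouse. In WT mice the order was ODC1 (64.0 ± 13.8, mean ± SD, n = 4), GCH1 (10.2 ± 1.40), ASL (6.81 ± 1.84), ARG2 (4.56 ± 1.04), ARG1 (1.47 ± 0.943), NOS2 (0.759 ± 0.701) and SLC7A2 (0.152 ± 0.192). Among neighbours in this order, ASL overlapped with ARG2, ARG1 with NOS2, and NOS2 with SLC7A2, while ODC1, GCH1 and ASL were separate from each other. In IL10RAKO mice ODC1 (118 ± 39.9), NOS2 (84.9 ± 67.3) and ARG2 (71.0 ± 40.4) led with overlapping ranges, followed by ARG1 (20.2 ± 16.4), GCH1 (19.0 ± 4.85), ASL (8.94 ± 1.74) and SLC7A2 (6.26 ± 4.71). Every gene overlapped with the next in that order except GCH1 with ASL. In DKO mice NOS2 (168 ± 65.0) came first by its mean, overlapping with ODC1 (100.2 ± 28.4). ARG2 (53.7 ± 10.5) was separate from ODC1 above it and from ARG1 (24.0 ± 10.0) below it, and ARG1, GCH1 (15.7 ± 3.08), SLC7A2 (10.1 ± 3.89) and ASL (9.89 ± 0.728) each overlapped with the next. Among 13022 genes with a length, the mean level per length of NOS2 ranked 10983 in WT. Its rank was 582 in IL10RAKO and 290 in DKO. ARG2 went from rank 6374 to 710 and 889, and ARG1 from 9606 to 2394 and 2039. SLC7A2 went from rank 12720 in WT to a middling 5312 in IL10RAKO and 3977 in DKO.

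The balance between the synthase and the arginases was described in each mouse as a ratio of levels per length, with no test. The ratio of NOS2 to ARG1 was 0.00962, 0.668, 3.39 and 0.335 in WT mice. It was 5.36, 6.05, 5.52 and 2.40 in IL10RAKO mice and 3.79, 7.26, 7.05 and 13.1 in DKO mice. WT mouse 10, with 181 NOS2 and 27 ARG1 reads, reached the range of the knockout mice. It also had the highest summed epithelial markers of the tested WT mice (978 CPM), whose part in this ratio was not tested. WT mouse 11, with 2678 CPM of these markers, had 0 NOS2 reads. The ratio of NOS2 to ARG2 was 0.00354 to 0.424 in WT, 0.847, 1.43, 0.894 and 1.17 in IL10RAKO, and 1.82, 2.12, 5.33 and 3.90 in DKO mice. NOS2 transcripts were thus about level with those of ARG2 in IL10RAKO mice and above them in all 4 DKO mice. The ratio of ARG2 to ARG1 was above 1 in all 12 tested mice, between 1.32 and 7.97, and was 0.878 in the CCR2KO mouse.

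**Figure D3:**
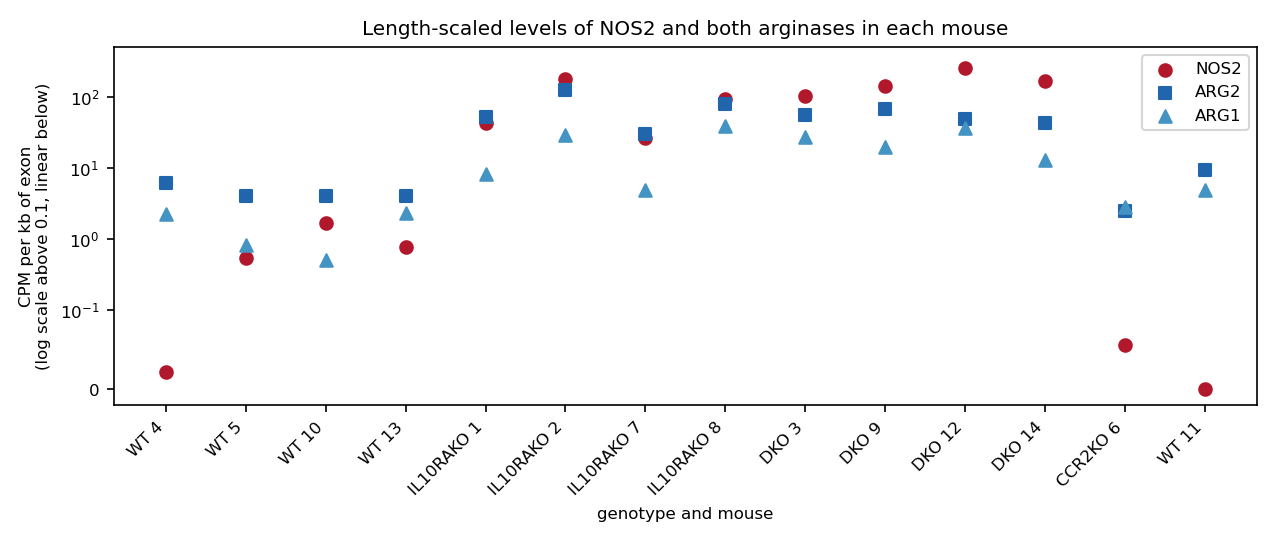
Level per length (CPM per kb of exon, vertical axis, logarithmic above 0.1 and linear below) of NOS2, ARG2 and ARG1 in each library (horizontal axis). NOS2 lies below ARG2 in all WT libraries and in the CCR2KO library, close to it in IL10RAKO mice (ratios 0.847 to 1.43) and above it in DKO mice (1.82 to 5.33).

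Within the 8 knockout mice, the genes did not all vary together. SLC7A2 and NOS2 ranked the mice in the same order, with mouse 7 lowest and mouse 12 highest (Pearson r = 0.976 and Spearman rho = 1 on the log2 scale). GCH1 and ARG2 followed each other (r = 0.899, rho = 0.976), with mouse 2 highest for both. Over the 8 mice pooled, NOS2 and GCH1 were nearly unrelated (r = 0.134), as were NOS2 and ODC1 (r = 0.0936). NOS2 and ARG1 lay between (r = 0.784). The pooled value for NOS2 and GCH1 joins 2 unlike genotypes. IL10RAKO mice 7, 1, 8 and 2 rose in this order for both genes. In DKO, mice 3 and 9 had the lowest NOS2 and the highest GCH1. These correlations describe 8 mice of 2 genotypes whose genes share library, depth and scaling, and no p-value is attached to them. Among IL10RAKO mice, summed neutrophil markers were also lowest in mouse 7 (13.1 CPM) and highest in mouse 2 (138 CPM). Summed monocyte markers had the same ends (394 and 1098 CPM), as did NOS2, SLC7A2, GCH1 and ARG2. The part of either marker set in these levels was not tested.

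**Figure D4:**
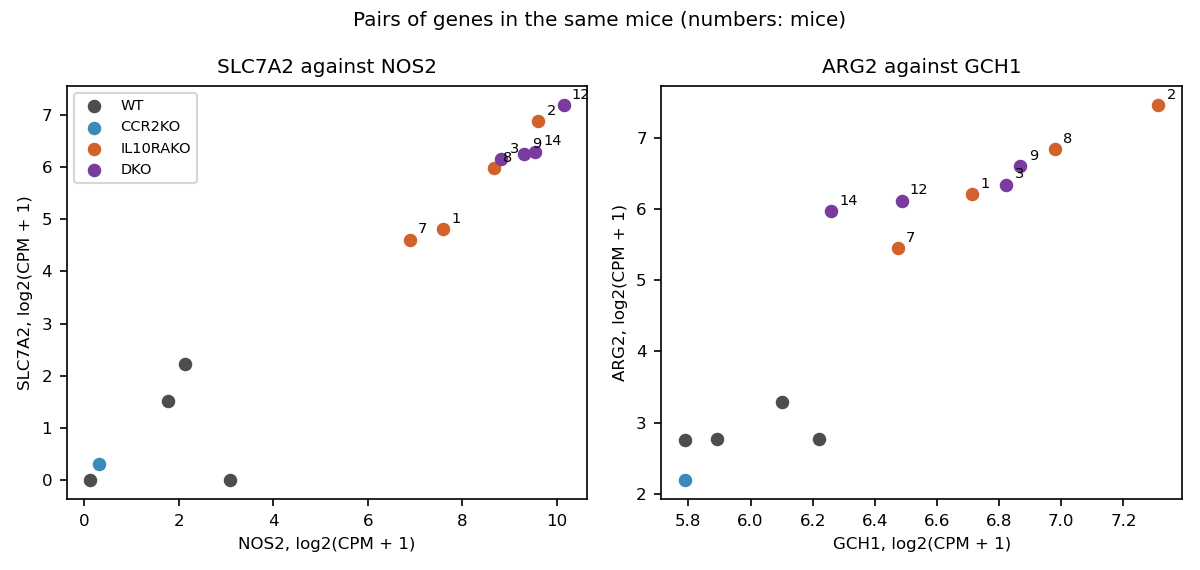
SLC7A2 against NOS2 (left) and ARG2 against GCH1 (right) in the 12 tested mice and the CCR2KO mouse, as log2(CPM + 1) on both axes, with knockout mice numbered. The 8 mice without IL10RA form a rising series in both panels, with IL10RAKO mouse 7 at the low end on the left and IL10RAKO mouse 2 at the high end on the right.

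Among all tested genes, those whose log2 CPM was most like that of each gene over the 12 libraries were named by their Pearson r, as a description in which the difference from WT contributes to every value. For NOS2 they were NAMPT, the salvage enzyme of NAD synthesis (r = 0.984), AW112010 (0.984) and IL15RA, a receptor chain for interleukin-15 (0.983). For SLC7A2 they were SLC7A11, the cystine transporter (0.975), and the lectin receptors CLEC4D (0.974) and CLEC7A (0.967). For ARG2 they were LY6C2, a surface antigen of monocytes (0.993), NRG1, a growth factor (0.990), and SOD2, the mitochondrial superoxide dismutase (0.990). The sort took Ly6C- cells, yet LY6C2 transcripts were higher in both knockout genotypes (log2 fold change 4.06 in IL10RAKO and 3.65 in DKO), and whether this bears on ARG2 was not tested. For ARG1 they were PIWIL2 (0.972), the clotting factor gene F10 (0.964) and SOCS1, a feedback inhibitor of cytokine signalling (0.962). For ODC1 the first was CFLAR, an inhibitor of caspase-8 (0.978), for GCH1 it was EIF4E, which binds the mRNA cap (0.961), and for ASL it was CLYBL, a mitochondrial lyase (0.933).

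The rest of the pathway did not move as a block. Of 48 further genes of arginine transport, nitric oxide, tetrahydrobiopterin, urea cycle, proline and polyamine metabolism, all were in the table and 37 were tested. In IL10RAKO 2 were higher and 5 lower than WT (18.9% called), and in DKO 2 were higher and 6 lower (21.6% called), shares near the 15.8% and 18.5% of all genes. None was called between DKO and IL10RAKO. The median log2 fold change of the 37 was −0.02 and −0.10 against WT, close to that of all genes.

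Of 4 tested transport genes, only SLC3A2 was called. It encodes the heavy chain shared by several amino acid transporters. It was at 292 to 414 CPM in WT mice, 597 to 966 CPM in IL10RAKO and 704 to 903 CPM in DKO mice, with no overlap (log2 fold change 1.06, adjusted p = 8.75e-04, and 1.18, adjusted p = 3.23e-04, edgeR). SLC7A1, the housekeeping cationic amino acid transporter, was at 10.5 to 16.5 CPM in WT, 8.45 to 15.8 CPM in IL10RAKO and 12.0 to 15.2 CPM in DKO mice. Among 10 tested polyamine genes, SMOX, spermine oxidase, was higher in both genotypes. It rose from 67.2 to 101.5 CPM in WT to 218 to 541 CPM in IL10RAKO (log2 fold change 2.07, adjusted p = 2.12e-04) and 233 to 394 CPM in DKO mice (1.90, adjusted p = 3.43e-04, edgeR). PAOX, another polyamine oxidase, was called lower in DKO and not in IL10RAKO, with no call between these genotypes (27.8 to 28.1 CPM in WT and 14.4 to 21.8 CPM in DKO, log2 fold change −0.65, adjusted p = 0.0201, edgeR). None of the 7 genes of ornithine and proline or of the 3 tested genes of the urea cycle and other arginine use was called.

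The tetrahydrobiopterin enzymes downstream of GCH1 (PTS and SPR) and the recycling enzyme QDPR were not called, and PCBD1, which regenerates the cofactor after use by hydroxylases, was lower from a low level (0.764 to 2.69 CPM in WT, 0.166 to 0.643 CPM in the 8 knockout mice, adjusted p = 0.0320 and 0.0389, edgeR). DDAH2, which degrades inhibitors of nitric oxide synthase, was at 4.81 to 12.3 CPM in WT and 0.766 to 2.02 CPM in the 8 knockout mice (log2 fold change −2.49, adjusted p = 0.00144, and −2.88, adjusted p = 4.74e-04, edgeR). CYGB, a globin that removes nitric oxide, was at 4.92 to 7.26 CPM in WT and 0.187 to 1.26 CPM in knockout mice (log2 fold change −2.79, adjusted p = 0.00106, and −3.64, adjusted p = 1.59e-04, edgeR). The remaining lower genes, named after their values were seen, were NOS3, the endothelial synthase (log2 fold change −2.89 and −2.53), and GUCY1A1, a subunit of the nitric oxide receptor (−7.02 and −4.93), which varied from 0.703 to 38.8 CPM among WT mice and had 0 to 22 reads in knockout mice. These 5 genes were lower in the same genotypes as the summed fibroblast markers (294 to 577 CPM in WT, at most 67.0 CPM in knockout mice). Among the tested WT mice, mouse 5 had the highest fibroblast sum (577 CPM) and the lowest endothelial sum (76.2 CPM). It also had the lowest NOS3, DDAH2, CYGB and GUCY1A1. WT mouse 10 had the highest endothelial sum (192 CPM) and the highest NOS3, DDAH2 and PCBD1, while CYGB and GUCY1A1 were highest in WT mouse 13. Summed endothelial markers were at 76.2 to 192 CPM in WT, 66.6 to 109 CPM in IL10RAKO and 52.1 to 86.5 CPM in DKO mice. The part of other cells in these 5 genes was not tested. With 10 reads required in every library, only 3 and 4 of the pathway genes were called.

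**Figure D5:**
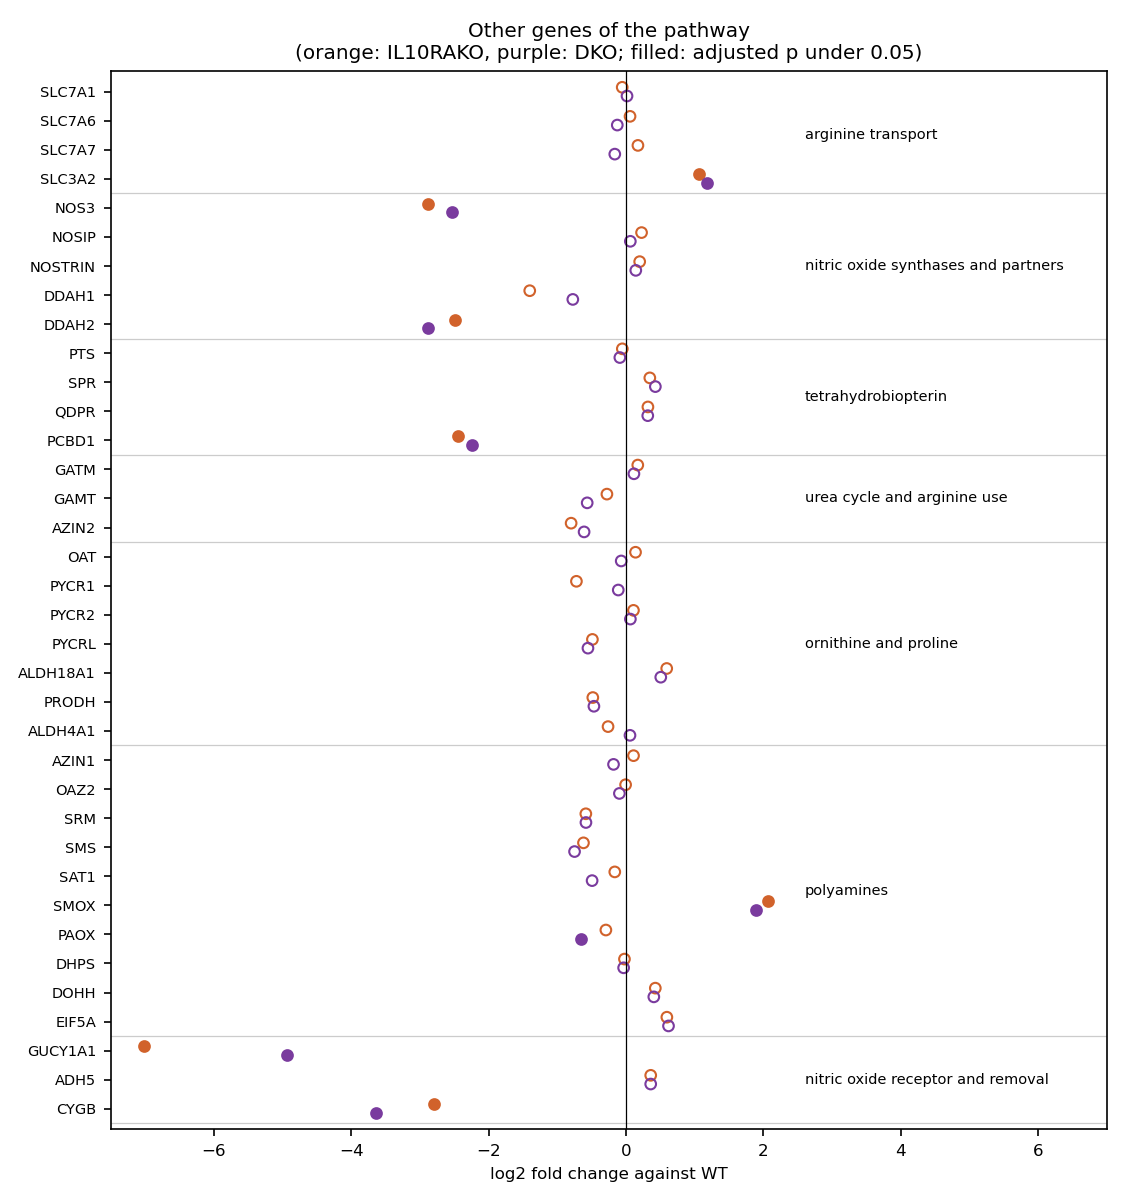
Log2 fold change against WT (horizontal axis) of tested pathway genes, grouped by list, in IL10RAKO (orange) and DKO (purple), with filled points for an adjusted p under 0.05 in edgeR. Most genes lie within 1 log2 unit of 0, SLC3A2 and SMOX are higher, and NOS3, DDAH2, PCBD1, GUCY1A1 and CYGB are lower in both genotypes.

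Regulators that are known to act on NOS2 or ARG1 were described from a list of 11, all tested, of which 5 were higher and 1 lower in IL10RAKO and 7 higher and 1 lower in DKO. Among those higher in both genotypes, named after their values were seen, were HIF1A (log2 fold change 2.04 and 2.09), IRF1 (1.75 and 1.74), CEBPB (1.24 and 1.28) and IRF8 (0.81 and 0.87). STAT3 (0.60, adjusted p = 0.0458, edgeR) and RELA (0.50, adjusted p = 0.0497, edgeR) were called in DKO, both close to the threshold. PPARG, a nuclear receptor linked to alternative activation, was lower (−1.20, adjusted p = 0.0110, and −2.54, adjusted p = 5.15e-05, edgeR). The CCR2KO mouse had 23.0 CPM of PPARG, within the range of the WT mice.

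Of the 7 tested genes for inducing cytokines and their receptors, 5 were higher in both genotypes. IL1B, an inflammatory cytokine, was at 2587 to 3299 CPM in WT, 9258 to 15547 CPM in IL10RAKO and 8366 to 12581 CPM in DKO mice (log2 fold change 2.14, adjusted p = 9.33e-06, and 1.79, adjusted p = 3.70e-05, edgeR). IFNG, the interferon gamma gene, was low in these libraries, at 0.573 to 3.56 CPM in WT and 3.36 to 43.1 CPM in knockout mice, and TNF, IL4RA and IL13RA1 were the other called genes. IL4 and IL13, whose products induce ARG1, did not pass the filter. Their counts say nothing of what other cells in the tissue produced. Of 6 genes of alternative activation, with which ARG1 is often grouped, none was higher, 3 were lower in IL10RAKO and 4 in DKO. RETNLA, a secreted protein of alternatively activated macrophages, was at 267 to 399 CPM in WT, 0.766 to 14.1 CPM in IL10RAKO and 0 to 0.692 CPM in DKO mice (log2 fold change −5.89, adjusted p = 1.31e-04, and −10.68, adjusted p = 8.31e-06, edgeR). CD163, a scavenger receptor, was at 77.1 to 159 CPM in WT and 0.840 to 8.29 CPM in knockout mice (log2 fold change −4.66 and −6.08). ARG1 therefore went in the opposite direction to the called genes of this list in both comparisons with WT.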

How the data were processed

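Sorted macrophages of single mice were profiled by SmartSeq v4 and paired-end sequencing. The authors aligned reads to mm10 with STAR 2.5.1b and deposited raw counts per gene, without normalization. A second deposited table holds edgeR pseudocounts, a score adjusted to a common library size, for 12 of the 14 libraries (edgeR 3.34.0). Genotypes came from the labels, which give no batch, sex or litter. Annotation, strand and treatment of multiply aligned reads are not given in the sources used here.

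Counts of the 12 libraries were fitted together in R 4.3.3 with edgeR 4.0.16 (TMM, filterByExpr by genotype with a minimum count of 10, glmQLFit, glmQLFTest, Benjamini-Hochberg adjustment over 13136 genes). DESeq2 1.42.0, other scalings and filters, WT mouse 11 added, other fits, exact permutation tests and omission of each mouse were the alternatives. The fit was tested on simulated data. Positions and exon lengths came from GENCODE vM21 (GRCm38), promoters from RefSeq, and the ASS1 alignment from Biopython 1.88. All 8 genes were named in every comparison, together with the called gene of smallest adjusted p per direction in each pathway list. The members and lists were chosen with earlier results of these data known. Libraries of the same genotype differed by more than sampling noise (chi-square per degree of freedom 31.8 or more). Some listed genes are counted with their list but not reported here.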

Additional observations from a re-analysis of the deposited data

Results flagged for a closer look

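Of 22 groups of 4 mice examined, 3 held a mouse that stood apart from the others by Dixon's criterion, which chance alone gives in about 5% of groups. SLC7A2 was at 145 CPM in DKO mouse 12 and between 70.2 and 77.4 CPM in the other DKO mice. ARG2 was at 8.74 CPM in WT mouse 4 and between 5.72 and 5.80 CPM in the other 3 WT mice of the test. ASS1 was at 0.0696 CPM in IL10RAKO mouse 1, which is a single read.

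In the libraries that entered no test, 3 of the 4 arginase values lay above the 4 WT mice of the test. ARG1 was at 6.32 CPM in CCR2KO mouse 6 and at 10.8 CPM in WT mouse 11, against at most 5.13 CPM in those WT mice. ARG2 was at 13.2 CPM in WT mouse 11, above those WT mice, and at 3.55 CPM in CCR2KO mouse 6, below all 4 of them (5.72 to 8.74 CPM). WT mouse 11 also had the highest summed epithelial markers (2678 CPM), and their part in its arginase levels was not tested.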

How the results depend on the processing

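NOS2, SLC7A2, ARG1 and ARG2 kept their direction and their call against WT in every alternative that tested them. Under a filter of 10 reads in every library NOS2 and SLC7A2 were not tested and GCH1 lost its call in DKO against WT (adjusted p = 0.0534, edgeR), so that 2 genes of the set were called there in place of 5, and 3 and 4 pathway genes in place of 7 and 8. Of 22 alternatives each, 8 lost the call of ODC1 in IL10RAKO and 8 that of GCH1 in DKO, and 3 gained that of ASL in DKO. Of these, 2 ODC1 losses (p = 0.0571) and 2 ASL gains (p = 0.0286) came from exact permutation tests. Such a p is for the gene alone and was set against 0.05 without adjustment over all genes. Between DKO and IL10RAKO, DESeq2 called 24 genes in place of 6, and leaving out single mice gave 4 to 10, with 10 without IL10RAKO mouse 2. In that comparison the log2 fold change of ARG1 ranged from −0.0627 to 0.772 without single mice. It was −0.0154 without IL10RAKO mouse 1, −0.0627 without IL10RAKO mouse 7 and −0.0236 without DKO mouse 12. That of ARG2 ranged from −0.643 to 0.00541, the latter without IL10RAKO mouse 2. The cause of these reversals was not tested. Library totals in place of TMM moved the median log2 fold change of all genes from −0.07 to −0.39 in IL10RAKO and from −0.06 to −0.32 in DKO against WT, and the share of called genes that were higher from 55.1% to 23.8% and from 50.0% to 25.9%. No paired analysis was possible because the genotypes hold different mice and their numbers only name them. Folds of NOS2 and SLC7A2 are limited by WT counts of 0 to 181 reads.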
